A study of Rattus norvegicus and Ovis aries with 113 samples.

Results

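The prefrontal cortex of 5 sheep was compared with 4 other regions of the neocortex of the same animals. Of the 113 RNA-seq libraries in the series, 55 were from sheep. The 5 labelled PC (prefrontal) were set against the 20 labelled FC (frontal), MC (motor), PPC (posterior parietal) and VC (visual). Each prefrontal library was paired by animal number with the mean of the other 4 libraries of that animal, so that 25 libraries entered the comparison. The series holds brain and reproductive tissue RNA of sheep and rats, and its title states an interest in genes that link the nervous system and reproduction. The question addressed here is which genes set the prefrontal sample apart from the rest of the sheep neocortex.

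The animals were post-pubertal rams (Ovis aries) numbered 687, 688, 690, 694 and 699, which received no treatment. All samples of an animal came from the same hemisphere. Breed and exact age were not given in the sources used here. Each library came from 1 dissected piece of cortex, so the values are averages over every layer and cell type in that piece, and how much white matter, leptomeninges or neighbouring tissue came with it is not stated. Values are TMM-scaled counts per 1000000 (CPM, counts divided by a library size that was corrected for composition). Differences are log2 fold changes, prefrontal minus the mean of the other 4 regions within sheep, and the threshold for calling a gene was an adjusted p of 0.05 in edgeR's quasi-likelihood test over 20045 genes.

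The mammalian neocortex is built of layers of excitatory neurons among which inhibitory interneurons, glia and vessels are interspersed. Its areas share these cell types and differ in the thickness of layers, in their connections and, in rodents and primates, in modest gradients of transcription factors, guidance molecules and synaptic organizers. The prefrontal cortex receives input from the mediodorsal thalamus and takes part in planning, working memory and social behaviour. In primates it is known for a granular layer 4 that is thin or absent only in part of its extent. It is also known for late myelination and for retinoic acid signalling with expression of the synaptic organizer CBLN2.

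The depth was even. The prefrontal libraries held 57.4 ± 8.86 M counts (1 M is 1000000 counts; SD, n = 5, range 51.0 to 72.4) and the others 57.7 ± 4.63 M (n = 20, range 49.2 to 66.8), a difference that an exact two-sided sign-flip permutation test over 5 sheep did not separate from 0 (p = 0.875; with 5 pairs this test cannot go below 0.05). Between 15250 and 15974 genes reached 1 CPM in a library. The median correlation of a library's log2 CPM with the other 24 lay between 0.961 and 0.985. The lowest were the motor libraries of sheep 687 and 699, the posterior parietal library of sheep 694 and the frontal library of sheep 699, and no prefrontal library was among these 4. Values without these 4 libraries are given where they differ most. The 5 prefrontal libraries carried general markers of cortical neurons, which are not specific to prefrontal cortex. SLC17A7, the vesicular glutamate transporter of cortical excitatory neurons, stood at 420 ± 131 CPM in prefrontal cortex, and GAD2, the GABA-synthesizing enzyme of interneurons, at 146 ± 21.0 CPM (SD, n = 5). The labels tell prefrontal from frontal cortex, but no gene whose level is known to separate these areas in sheep was at hand. Neither the prefrontal label nor the position of the sample within the frontal lobe was therefore checked.

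No gene was called in the prefrontal comparison, 0 of 20045 (0%) in either direction. The smallest adjusted p in edgeR was 0.47, shared by TFAP2D and the unnamed locus LOC105607350, and for every gene named below other than these the adjusted p was 1.00. At an unadjusted p below 0.05 there were 845 genes (4.22%), 496 higher (2.47%) and 349 lower (1.74%), fewer than the 5% that an even spread of p-values gives. Other settings did not all keep this shortfall. More than 5% were found without the 4 libraries of lowest correlation (1267 of 20328 genes) and in limma's voom (1228 of 20045). The same held with posterior parietal cortex not compared (1276 of 19814). Fewer than 5% were found without sheep 687 (523 of 20089) and with motor cortex not compared (682 of 19858). No gene had its 5 prefrontal libraries all above or all below the other 20. The DESeq2 test with the same block called 39 genes, 18 higher and 21 lower. Of these, 33 had not passed the low-count filter of the edgeR fit, and over the 39 the median gene had 9 counts in all 25 libraries together and was at 0 in 21 of them. The 6 that had passed it were LOC105607350, LOC121817639 and SH2D4B, fitted higher, and TTR, SEMA3E and LOC105603900, fitted lower, with DESeq2 adjusted p from 0.00733 to 0.0195.

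**Figure D1:**
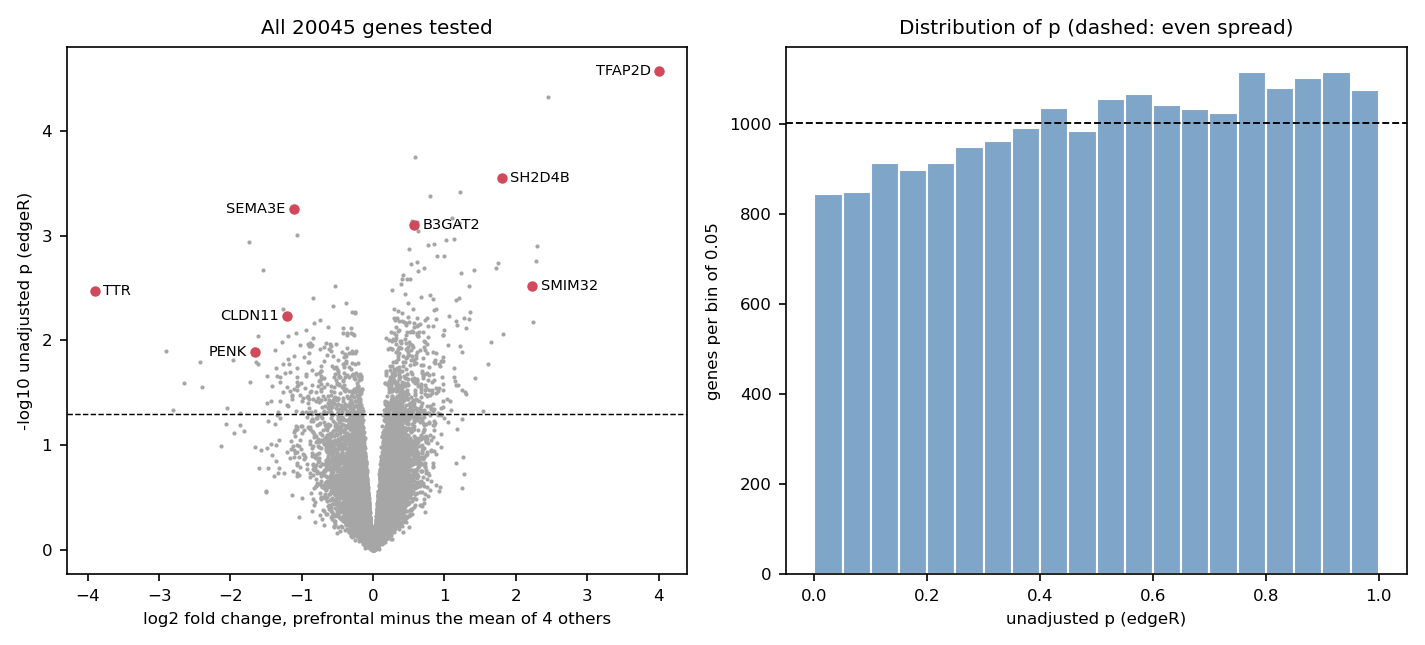
Left, each of the 20045 genes tested, with its log2 fold change (prefrontal minus the mean of the 4 other regions, horizontal axis) and −log10 of its unadjusted edgeR p (vertical axis; the dashed line is p = 0.05); 8 genes described in the text are marked. Right, the number of genes in each p-value bin of width 0.05, with a dashed line where an even spread would lie. In the main fit shown here, the bin below 0.05 holds 845 genes and lies under that line, which other settings did not all keep.

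The precision of these differences is given by intervals for single genes. These are not adjusted over the 20045 tests and do not give the smallest difference that could be called. Over the 12157 genes that reached 5 CPM in the higher group, the median SE of the log2 fold change was 0.13 and the median 95% interval reached 0.27 to either side. For 11807 of them (97.1%) the whole interval lay within a 2-fold difference in either direction, and for 10382 (85.4%) within 1.5-fold. Only 39 of the 12157 had a fitted difference beyond 2-fold. Over all genes with an SE, including the rare ones, 17481 of 20043 (87.2%) had an interval within 2-fold.

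Compared with single regions, prefrontal cortex gave 0 calls against frontal (0%), 0 against posterior parietal (0%) and 0 against visual cortex (0%). In these the unadjusted p lay below 0.05 for 920, 1385 and 426 genes, and DESeq2 called 35, 67 and 24. Against motor cortex 1 gene was called (0.00499%), SEMA3E, and 2529 genes had an unadjusted p below 0.05. DESeq2 called 414 genes against motor cortex, of which 281 had passed the low-count filter of the edgeR fit. When each of the other regions was set against its own 4 counterparts in the same fit, frontal and visual cortex gave 0 calls (1288 and 480 genes at an unadjusted p below 0.05), motor cortex 1 (SEMA3E again, 0.00499%) and posterior parietal cortex 133 (0.664%), 89 higher and 44 lower. These comparisons share libraries, and whether the number of calls differs between regions was not tested. Without the replicate block the posterior parietal count was 0 and the motor count 35. Without the 4 libraries that stand apart posterior parietal and motor cortex gave 0 calls (3350 and 1372 genes at an unadjusted p below 0.05) and visual cortex 2.

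SEMA3E, a secreted class 3 semaphorin that acts through plexin D1 on growing axons and vessels and that marks layer 6 neurons in rodents, was the gene most clearly lower in prefrontal than in motor cortex. In sheep 687, 688, 690, 694 and 699 its prefrontal level was 6.48, 18.6, 8.83, 10.4 and 7.54 CPM. In motor cortex of the same animals it was 109, 37.0, 37.9, 34.6 and 32.3 CPM. Every prefrontal value was thus under every motor value, and the posterior parietal libraries, at 6.89 to 15.6 CPM, covered much the same range as the prefrontal ones. Frontal cortex, at 14.2 to 41.5 CPM, and visual cortex, at 9.43 to 30.1 CPM, lay between these and overlapped the prefrontal range. SEMA3E fell by 2.23 on the log2 scale from motor to prefrontal cortex (SE 0.33, 95% interval −2.93 to −1.54, edgeR adjusted p = 0.0314, lower in 5 of 5 sheep). The differences from frontal (−1.17 ± 0.32), visual (−0.81 ± 0.32) and posterior parietal cortex (−0.23 ± 0.32, SE) did not pass the edgeR test, nor did the main difference of −1.11 ± 0.27, which DESeq2 called (adjusted p = 0.0120). SEMA3E was not called against motor cortex without the 4 libraries that stand apart (−1.69, edgeR adjusted p = 0.373), without the replicate block (−2.27, 0.0586), or when sheep 687, 690, 694 or 699 was left out (−2.35 to −1.75, adjusted p from 0.0616 to 0.382).

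The largest fitted excess in prefrontal cortex was that of TFAP2D, a transcription factor of the AP-2 family, and it was carried by 4 of the 5 animals. Its prefrontal level was 0.469 CPM in sheep 687, 1.16 in 690, 1.12 in 694 and 1.18 in 699. In sheep 688 it was 0, where 3 counts, the most that a count of 0 allows, would be 0.0639 CPM. The 20 other libraries held 0 to 0.342 CPM, with 8 of them at 0 and the highest in visual cortex of sheep 699. So 4 prefrontal libraries lay above all others and the fifth was among the lowest. The gene was rare: 239 counts in the 5 prefrontal libraries and 71 in the 20 others. Its log2 fold change was 4.01 ± 0.76 (SE, 95% interval 2.43 to 5.59, edgeR adjusted p = 0.47). Without all libraries of sheep 688 it was 4.79 with an adjusted p of 0.00658, and without the prefrontal library of that sheep alone 4.63 with an adjusted p of 0.0247, both in edgeR. In sheep 688 the highest TFAP2D level, 0.279 CPM, was in the frontal library. The calls made without sheep 688 therefore depend on leaving out the 1 animal that ran the other way, and why it did was not tested.

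In a second low gene the prefrontal library of sheep 688 was again the lowest of the 5, but sheep 688 was not the only animal to run the other way. SMIM32, a small membrane protein from the list of claustrum markers (the claustrum is a thin sheet of neurons beneath the insular cortex), had prefrontal levels of 1.18, 0.256, 2.21, 2.53 and 4.55 CPM in sheep 687, 688, 690, 694 and 699. In sheep 688 it was in the frontal library that the level was high, at 4.36 CPM, and the frontal libraries of sheep 690, 694 and 699 held 0.145 to 0.359 CPM. Visual cortex of sheep 687 held 7.77 CPM, the highest of all 25 libraries, while the motor and posterior parietal libraries lay between 0.116 and 0.559 CPM. The fitted log2 fold change was 2.23 ± 0.67 (SE, unadjusted p = 0.00302 and adjusted p = 1.00 in edgeR), with prefrontal higher than the mean of the others in 3 of 5 sheep. The claustrum list as a whole (5 of 5 genes tested, 3 fitted higher and 2 lower, median 0.19 against 0.01 over all genes tested) was lower in prefrontal cortex by 0.37 and 0.68 in sheep 687 and 688 and higher by 0.34, 0.68 and 0.71 in sheep 690, 694 and 699, in units of mean log2(CPM + 1). The part that claustrum tissue in a dissection plays in these levels was not tested.

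**Figure D2:**
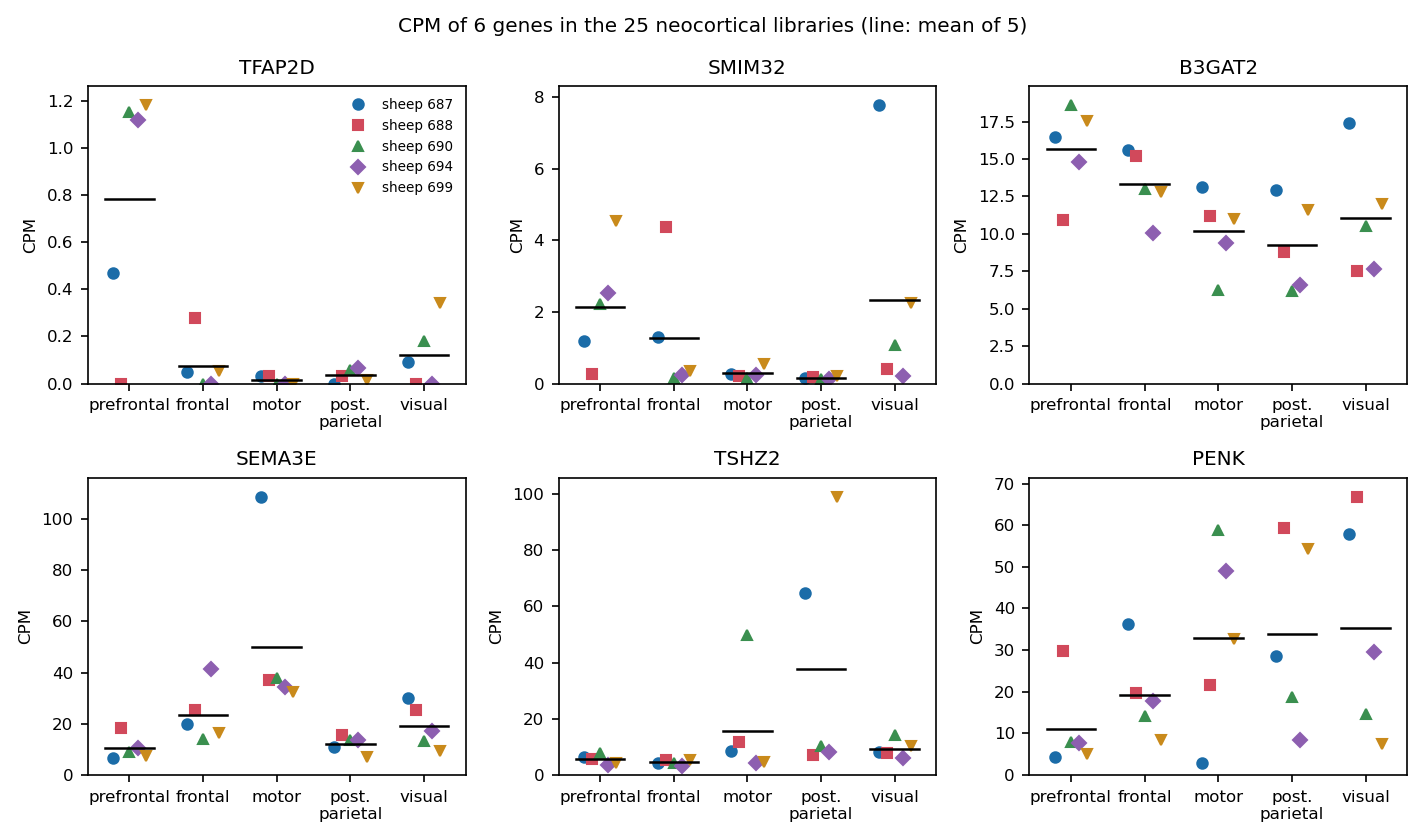
CPM of TFAP2D, SMIM32, B3GAT2, SEMA3E, TSHZ2 and PENK in each of the 25 libraries (vertical axes, linear, from 0) by region, with 1 symbol and colour per sheep and a black line at the mean of 5. The prefrontal library of sheep 688 (red square) is at 0 for TFAP2D and is the highest prefrontal library for PENK (29.8 CPM) and SEMA3E (18.6 CPM).

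The other genes of smallest p were also rare or unnamed. SH2D4B, which encodes a protein with an SH2 domain, read 0.469, 0.234, 0.863, 3.92 and 1.81 CPM in prefrontal cortex of sheep 687, 688, 690, 694 and 699 and 0.116 to 0.861 elsewhere. Its excess thus sat in 3 sheep, and sheep 688 was again the lowest (1.80 ± 0.41, SE). CCR8, a chemokine receptor of T cells, was higher in 5 of 5 sheep at 0.208 to 0.639 CPM (1.22 ± 0.29), with 98 counts in the 5 prefrontal libraries. LOC121817639, at 5.42 ± 0.85 CPM and 0.58 ± 0.13, was higher in 4 of 5. On the low side, TCP10L (−1.06 ± 0.28) and PIMREG, a mitotic regulator (−1.55 ± 0.45), had 78 and 18 counts in the 5 prefrontal libraries together.

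Among genes of at least 5 CPM, 8 with the smallest p in the higher direction were examined. In 4 of them a small difference was shared by all animals. B3GAT2, a glucuronyltransferase that makes the HNK-1 carbohydrate of neural adhesion molecules, stood at 16.5, 10.9, 18.6, 14.8 and 17.6 CPM in prefrontal cortex of sheep 687, 688, 690, 694 and 699. Its other 20 libraries ran from 6.19 to 17.4 CPM. The groups overlapped, while each prefrontal value exceeded the mean of the other 4 regions of its animal, and the log2 fold change was 0.57 ± 0.14 (SE, unadjusted p = 0.0008, adjusted p = 1.00 in edgeR). The difference was smallest from frontal cortex (0.25 ± 0.19) and largest from posterior parietal cortex (0.82 ± 0.19).

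LAYN, which encodes the hyaluronan receptor layilin, read 11.0, 8.61, 12.0, 14.7 and 8.94 CPM in the prefrontal libraries. Its regional means elsewhere were 9.03 in frontal, 6.09 in motor, 7.00 in posterior parietal and 6.46 CPM in visual cortex. The log2 fold change was 0.63 ± 0.16 (SE), again with the smallest distance to frontal cortex (0.26 ± 0.22). KCTD15, a BTB-domain protein known as an inhibitor of AP-2 factors in the neural crest, had prefrontal values of 35.8, 26.7, 39.6, 54.2 and 60.2 CPM and a log2 fold change of 0.51 ± 0.15. GMIP, a GTPase-activating protein for RhoA, had 15.4 to 21.5 CPM in prefrontal cortex, a mean of 13.8 ± 2.94 in the others and a log2 fold change of 0.42 ± 0.12. These 4 genes were higher in prefrontal cortex in 5 of 5 sheep, as were 458 of the 20045 genes tested (2.28%), and 513 (2.56%) were lower in 5 of 5. These genes were picked out for their small p after the values had been seen, and the frontal libraries overlapped the prefrontal ones in each. The remaining genes were not shared by all animals: GALNT13, a glycosyltransferase (0.40 ± 0.12), and LMO7 (0.67 ± 0.20) were higher in 4 of 5 sheep, and F5, coagulation factor V (0.88 ± 0.28), and SH3PXD2B (0.35 ± 0.11) in 3 of 5.

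In the other direction the genes of smallest p at that level included SEMA3E, TTR and CLDN11, which are described with their groups. They also included the kinase gene SGK1, a target of glucocorticoids (34.9 ± 4.49 CPM in prefrontal and 45.6 ± 8.81 in the others, −0.38 ± 0.12 SE), and ABHD17B, a depalmitoylating enzyme (14.5 ± 3.22 and 21.6 ± 6.66 CPM, −0.57 ± 0.18). FAM241A (−0.75 ± 0.25), CEP57L1 (−0.25 ± 0.08) and IFRD1 (−0.26 ± 0.08) were of the same kind. These 5 were lower in 5 of 5 sheep, and in none did the groups separate.

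Among the layer markers those of the deepest layer were mostly fitted lower. Of 11 markers of layer 6 and of the subplate-derived layer 6b, 10 were fitted lower in prefrontal cortex and 1 higher, with a median log2 fold change of −0.51 against 0.01 over all genes tested. None was called, and 2 had an unadjusted p below 0.05. The level of the list was below the mean of the other 4 regions in 5 of 5 sheep, by 0.84, 0.11, 0.38, 0.23 and 0.44 in units of mean log2(CPM + 1) for sheep 687, 688, 690, 694 and 699. Among the many lists compared, a few can agree in 5 of 5 sheep through random signs alone, so this agreement is a description only. The median kept its sign under all 24 alternative settings (−0.60 to −0.31). By region, the list stood at 2.89 ± 0.27 in prefrontal, 2.99 ± 0.17 in posterior parietal and 3.13 ± 0.35 in visual cortex, and at 3.48 ± 0.35 in frontal and 3.56 ± 0.34 in motor cortex (SD, n = 5). The 5 frontal libraries (3.24 to 4.06) all lay above the 5 prefrontal ones (2.49 to 3.14), whereas the posterior parietal and visual libraries overlapped them. That separation was picked out among many lists and regions after the values were seen and was not tested. No gene was called between prefrontal and frontal cortex.

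Single members of that list scattered widely and did not all follow this order of regions. FOXP2, a transcription factor of corticothalamic neurons, had 0.387, 2.22, 1.01, 2.42 and 1.66 CPM in prefrontal cortex of sheep 687, 688, 690, 694 and 699. Its mean was 1.54 there, 1.68 in posterior parietal, 2.51 in visual, 4.40 in frontal and 5.35 CPM in motor cortex, and its main log2 fold change was −1.01 ± 0.52 (SE). TLE4, a corepressor of the same neurons, differed less, with 18.0 ± 2.71 CPM in prefrontal cortex and 24.2 ± 6.83 in the others (−0.40 ± 0.16). SYT6, a synaptotagmin of layer 6, read 2.59, 10.1, 3.88, 4.57 and 2.61 CPM in the prefrontal libraries, so that sheep 688 was again the odd one, against a mean of 13.8 in motor cortex. NXPH4, a neurexophilin of layer 6b, averaged 1.16 CPM in prefrontal, 0.856 in posterior parietal and 4.65 in motor cortex (main difference −0.81 ± 0.46). NR4A2, a nuclear receptor of layer 6b, averaged 14.8 CPM in prefrontal and 18.2 in motor cortex, with its highest mean in frontal cortex (26.2).

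Markers of layer 5 gave a mixed picture, with 5 of 14 fitted higher and 9 lower (median −0.09). FEZF2, the selector of subcerebral projection neurons, stood at 6.02 ± 2.72 CPM in prefrontal cortex and 12.0 ± 7.85 in the others, with its highest mean in motor cortex (19.5). Its difference of −0.73 ± 0.43 did not pass the test. TSHZ2, a zinc finger factor of deep-layer neurons, read 6.44, 5.77, 7.77, 3.54 and 4.18 CPM in prefrontal cortex, close to the frontal libraries at 3.37 to 5.44. The fitted difference of TSHZ2 was −1.08 ± 0.51, and 3 libraries elsewhere lay far above the rest: posterior parietal cortex of sheep 699 (98.9) and 687 (64.8) and motor cortex of sheep 690 (49.8).

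Markers of upper layers were fitted slightly higher. Of 10, 9 were fitted higher in prefrontal cortex and 1, PENK, lower, and the median was 0.12. Without sheep 694 that median was −0.0088, and with the oligodendrocyte level as a covariate it was 0.0047. The list stood at 5.75 in prefrontal cortex in mean log2(CPM + 1), below visual (5.91) and frontal cortex (5.86). Posterior parietal (5.62) and motor cortex (5.45) were lower, with 4.19 in motor cortex of sheep 687. CUX2, a homeobox factor of layers 2 to 4, had prefrontal values of 96.4, 85.5, 118, 106 and 93.5 CPM and a mean of 104 ± 20.8 in visual cortex, so prefrontal and visual cortex did not differ beyond their spread. Motor cortex averaged 53.6 ± 29.0 CPM, with 9.77 in sheep 687, one of the libraries that stand apart. The main log2 fold change of CUX2 was 0.52 ± 0.27 (SE). RORB, a nuclear receptor that marks layer 4, stood at 5.16 ± 3.33 CPM in prefrontal and 5.21 in visual cortex, above 3.00 in motor cortex, yet its difference of 0.57 ± 0.31 was −0.014 without sheep 699. KCNH5, a potassium channel of the ether-à-go-go family that is on the layer 4 list, had 7.42, 6.20, 11.5, 18.4 and 12.3 CPM in prefrontal cortex and a difference of 0.83 ± 0.33. The layer 4 list as a whole (5 of 6 tested, 3 higher and 2 lower) had a median of 0.02.

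PENK, the precursor of the enkephalin opioids, was the member furthest from 0 among 28 neuropeptide and opioid receptor genes tested (8 fitted higher, 20 lower, median −0.08). It read 4.44, 29.8, 7.87, 7.74 and 4.97 CPM in the prefrontal libraries of sheep 687, 688, 690, 694 and 699. Elsewhere it ran from 2.80 CPM in motor cortex of sheep 687 to 66.8 in visual cortex of sheep 688. Prefrontal cortex of 4 sheep lay at the low end of this range and that of sheep 688 in its middle, and the log2 fold change was −1.65 ± 0.60 (SE, lower in 5 of 5 sheep, unadjusted p = 0.0128 in edgeR).

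Interneuron genes were level. Of 18 tested, 6 were fitted higher and 12 lower with a median of −0.04, and the single members ran from −0.23 to 0.26. The list stood at 5.01 ± 0.09 in prefrontal cortex and, per sheep, within 0.10 of the mean of the other regions. SLC32A1, the vesicular GABA transporter, had 43.5 ± 7.54 CPM in prefrontal and 48.5 ± 7.26 in the others (−0.16 ± 0.12). CORT, the somatostatin-like peptide cortistatin, had 7.60 ± 0.65 CPM and its difference was −0.22 ± 0.21. Perineuronal net genes, which code for the matrix around fast-spiking interneurons, were likewise near 0 (9 tested, median 0.04).

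All 14 neurofilament and fast-conduction genes tested were fitted lower, with a median of −0.22 and 1 member at an unadjusted p below 0.05. This list holds the large-caliber axon proteins and channels that are high in long-range projection neurons. NEFL, the light neurofilament chain, read 303, 504, 332, 343 and 317 CPM in prefrontal cortex of sheep 687, 688, 690, 694 and 699, and NEFH, the heavy chain, 49.4, 116, 58.8, 45.1 and 50.5. In both, 4 sheep clustered and sheep 688 lay far above them. The motor means were 487 for NEFL and 104 for NEFH, and the main differences were −0.24 ± 0.14 and −0.36 ± 0.22 (SE). KCNA1, the axonal potassium channel Kv1.1, differed by −0.51 ± 0.23 and was lower in 5 of 5 sheep. With the oligodendrocyte level as a covariate the median of this list was −0.01.

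Patterning and wiring genes, which in other mammals distinguish areas, showed no shared direction. Of 29 areal patterning transcription factors, 14 were fitted higher and 15 lower (median −0.06, and 0.08 without the 4 libraries that stand apart), and of 70 axon guidance genes 31 and 39 (median −0.02, with SEMA3E and its relative SEMA3C, −1.14 ± 0.50, at the low end). Of 32 cadherins and protocadherins, 15 and 17 went either way (median −0.02). MEIS2, a homeobox factor tied to retinoic acid in primate frontal cortex, had 35.4 ± 5.28 CPM in prefrontal and 31.5 ± 7.34 in the others, a difference of 0.18 ± 0.13 (95% interval −0.09 to 0.46) that was above 0 in 5 of 5 sheep. ETV5, a target of fibroblast growth factor signalling, was at −0.33 ± 0.16, and BHLHE22, an area-patterning factor, at 0.51 ± 0.33.

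The retinoic acid list (17 of 19 genes tested, 7 fitted higher and 10 lower, median −0.04, and 0.11 without the 4 libraries that stand apart) showed no shared direction either. CRABP2, an intracellular carrier of retinoic acid, read 7.56, 9.65, 5.86, 4.71 and 3.97 CPM in prefrontal cortex against 12.4 ± 5.17 in the others, and was lower in 5 of 5 sheep (−0.91 ± 0.33). RARA, a retinoic acid receptor, was at −0.32 ± 0.17. CBLN2, the cerebellin that organizes synapses through neurexins, stood at 64.3 ± 16.7 CPM in prefrontal cortex, 91.6 in frontal, 60.2 in motor, 48.3 in posterior parietal and 62.0 in visual cortex. Its difference of 0.03 ± 0.16 had a 95% interval of −0.32 to 0.37, which leaves out an excess of 1.5-fold, and its highest mean was in the frontal sample. The 20 synaptic organizers split 10 to 10 (median −0.02).

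Transmitter receptors and channels were close to even. Of 25 glutamate receptor genes 13 were fitted higher and 12 lower (median 0.00). Among these, 2 kainate receptor subunits differed in sign: GRIK1 at 106, 73.1, 70.4, 65.2 and 86.6 CPM in prefrontal cortex and 63.5 ± 13.5 in the others (0.35 ± 0.15, higher in 5 of 5 sheep), and GRIK3 at 32.6 ± 9.58 and 52.9 ± 27.2 CPM (−0.63 ± 0.30, lower in 5 of 5). GRIK3 in posterior parietal cortex averaged 30.5 CPM, like the prefrontal level. Of 14 GABA-A receptor subunits 11 were fitted higher (median 0.06), but in sheep 687 and 688 the list was lower in prefrontal cortex by 0.33 and 0.52 and in sheep 694 and 699 higher by 0.53 and 0.51. GABRA4 was at 0.19 with all sheep and at −0.010 without sheep 694. Monoamine and acetylcholine receptors had a median of 0.07 over 44 genes. HTR2B, a serotonin receptor, reached 0.511 to 2.44 CPM in prefrontal cortex (0.99 ± 0.27), and CHRNA4, a nicotinic receptor subunit, was at −0.41 ± 0.16. Potassium channels had a median of −0.02 over 82 genes, and sodium and calcium channels a median within 0.01 of 0 over 34, with CACNA1D, an L-type calcium channel, at 0.18 ± 0.07.

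Genes of myelinating oligodendrocytes had the lowest median among the lists of cortical cell types. All 15 tested were fitted lower in prefrontal cortex, with a median of −0.90, and 9 had an unadjusted p below 0.05 where 1.74% of all genes did so in that direction. None was called. CLDN11, the claudin of myelin tight junctions, read 26.8, 51.9, 28.1, 40.8 and 21.0 CPM in prefrontal cortex of sheep 687, 688, 690, 694 and 699 and 30.4 to 271 in the others, where the highest was motor cortex of sheep 699 (88.4 ± 62.2, difference −1.20 ± 0.39), and MYRF, the transcription factor that drives myelination, differed by −1.11 ± 0.41. The groups overlapped in CLDN11, and the prefrontal library of sheep 699 was the lowest of all 25. In a bulk sample fewer oligodendrocytes and less of their RNA per cell cannot be told apart.

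The animals differed in this. The oligodendrocyte level of prefrontal cortex was below the mean of the other regions by 1.16, 0.77, 1.25 and 1.83 in sheep 687, 690, 694 and 699, and above it by 0.65 in sheep 688, in units of mean log2(CPM + 1). Across libraries the list ran from 5.07 to 6.77 in prefrontal cortex and from 5.41 to 8.71 in the others. The median fold change was −1.55 without sheep 688 and −0.77 without the 4 libraries that stand apart. Oligodendrocyte precursors were closer to 0 (8 tested, 3 higher and 5 lower, median −0.10), as were SOX10 at −0.53 ± 0.24 and OLIG2 at −0.23 ± 0.15, which both precursors and mature cells express. Of the dissected white matter no measure other than these genes was at hand.

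**Figure D3:**
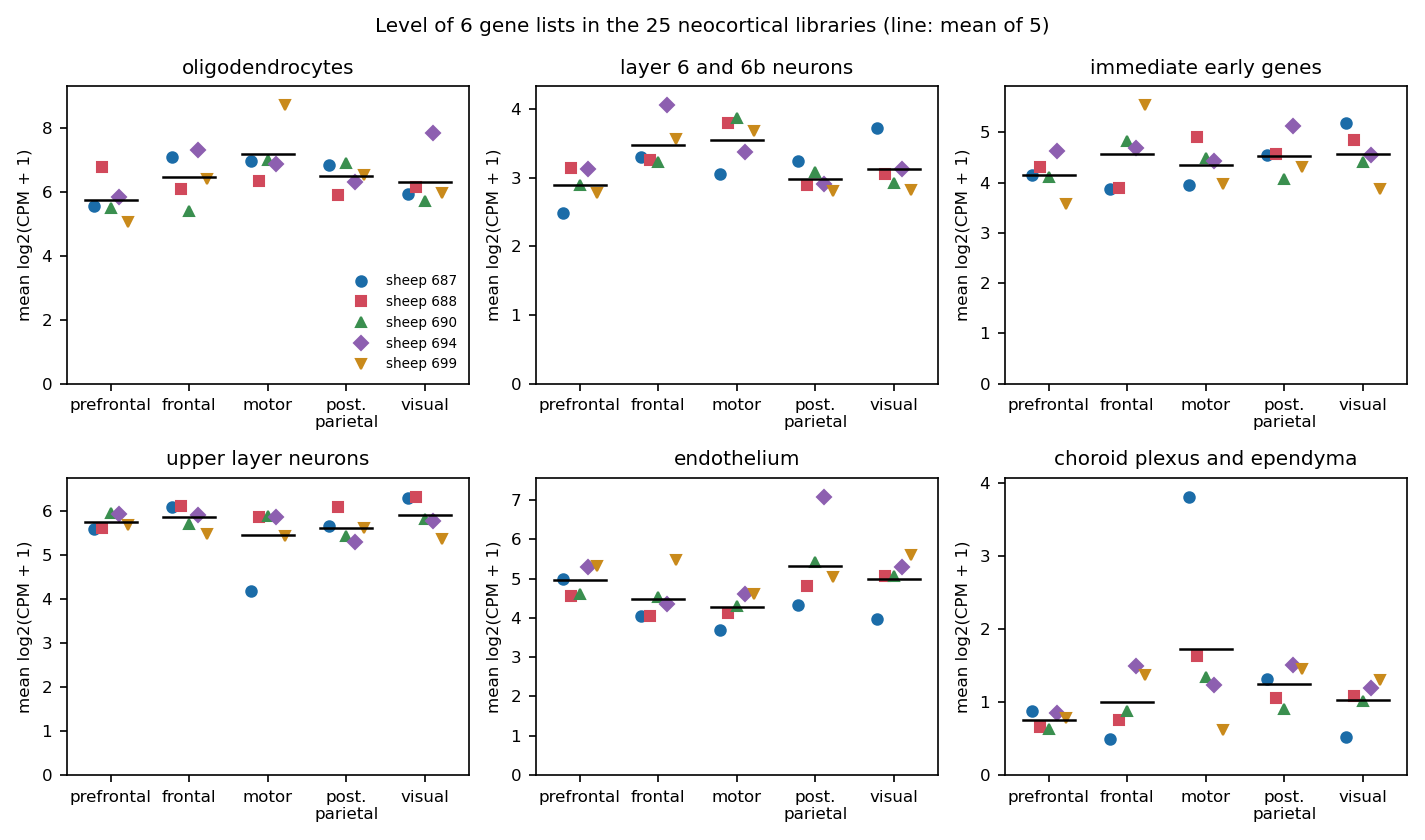
Mean log2(CPM + 1) of 6 gene lists (vertical axes, from 0) in each of the 25 libraries by region, with 1 symbol and colour per sheep and a black line at the mean of 5. Oligodendrocyte genes are low in 4 prefrontal libraries and highest in motor cortex of sheep 699 (8.71), layer 6 genes are higher in frontal and motor cortex, and the choroid plexus list is highest in motor cortex of sheep 687 (3.81).

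Genes of astrocytes, microglia and vessels had medians close to 0. Astrocyte genes had a median of 0.09 over 10 genes, with the glutamate transporters SLC1A3 (1413 ± 346 CPM, 0.42 ± 0.18) and SLC1A2 (0.40 ± 0.23) furthest up. Of 12 microglial genes 11 were fitted higher with a median of 0.13, which was −0.038 without sheep 687, and of 10 endothelial genes 9, with a median of 0.19. The endothelial list was higher by 0.97 in prefrontal cortex of sheep 687 and within 0.23 of the other regions in the other 4 animals, and its median was −0.11 without the prefrontal library of sheep 687 and 0.34 without the 4 libraries that stand apart. Of 8 pericyte and smooth muscle genes 7 were fitted higher (median 0.18, and 0.0066 without sheep 687). That list was higher in 4 of 5 sheep, by 0.89, 0.34, 0.53 and 0.15 in sheep 687, 690, 694 and 699, and lower by 0.20 in sheep 688. TAGLN, a protein of smooth muscle, had 14.8 to 38.2 CPM in prefrontal cortex and was higher in 5 of 5 sheep (0.59 ± 0.54). The endothelial level in posterior parietal cortex of sheep 694 was 7.08, the highest of all libraries (prefrontal range 4.56 to 5.32).

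Genes of choroid plexus and ependyma, tissues that lie next to the cortex and its ventricles, were mostly fitted lower in prefrontal cortex. Of 7 choroid plexus and ependymal genes tested, 6 were fitted lower and 1 higher (median −0.97). The list was lower in 5 of 5 sheep by 0.40 to 0.66, an agreement not tested against random signs over all lists. Its level was low, with a prefrontal mean of 0.76 in mean log2(CPM + 1). In sheep 687 the prefrontal level (0.88) was above frontal (0.50) and visual cortex (0.52) and below posterior parietal cortex (1.31). The difference of sheep 687 thus leans on its motor library (3.81), which is 1 of the 4 that stand apart. TTR, transthyretin, which the choroid plexus secretes, read 0.277 to 2.77 CPM in the prefrontal libraries and up to 740 CPM elsewhere, in motor cortex of sheep 687. The TTR difference of −3.90 ± 1.17 was called by DESeq2 (adjusted p = 0.0102) and not by edgeR. Without the 4 libraries that stand apart the median of the list was −0.64, and with motor cortex not compared it was −0.44. The part that neighbouring tissue in a dissection plays in these levels was not tested. Meningeal genes had a median of −0.04, which was 0.45 without those 4 libraries and −0.43 with the oligodendrocyte level as a covariate. Striatal genes had a median of 0.04.

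Immediate early genes, which neurons switch on soon after activity, were mostly fitted lower. Of 20, 18 were fitted lower and 2 higher, with a median of −0.48. The median kept its sign under all 24 alternative settings (−0.63 to −0.30). None was called. An unadjusted p below 0.05 was reached by 5, all lower, where 1.74% of all genes did so in that direction. The list lay below the mean of the other regions in 5 of 5 sheep, which was not tested against random signs over all lists. It was lower by 0.23, 0.24, 0.35, 0.08 and 0.84 in sheep 687, 688, 690, 694 and 699. Single regions did not all follow. In sheep 687 the prefrontal level (4.16) was above frontal (3.87) and motor cortex (3.95) and below posterior parietal (4.55) and visual cortex (5.19). EGR2 read 1.02, 4.71, 4.89, 5.31 and 0.443 CPM in prefrontal cortex and 9.01 ± 5.20 in the others (−1.64 ± 0.62), and NR4A3 3.36 ± 2.38 and 10.7 ± 7.68 CPM (−1.62 ± 0.62). ARC, whose protein acts at active synapses, was at 5.48, 29.7, 8.14, 20.0 and 8.32 CPM and lower in 4 of 5 sheep (−0.98 ± 0.36). The highest library for the list was frontal cortex of sheep 699 (5.54), which is 1 of the 4 that stand apart. Prefrontal cortex of the same animal was the lowest (3.58). The order in which regions were dissected is not given in the sources used here, and its part in these levels was not tested. Heat shock chaperones, which respond to cell stress, had a median of −0.08 over 10 genes.

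**Figure D4:**
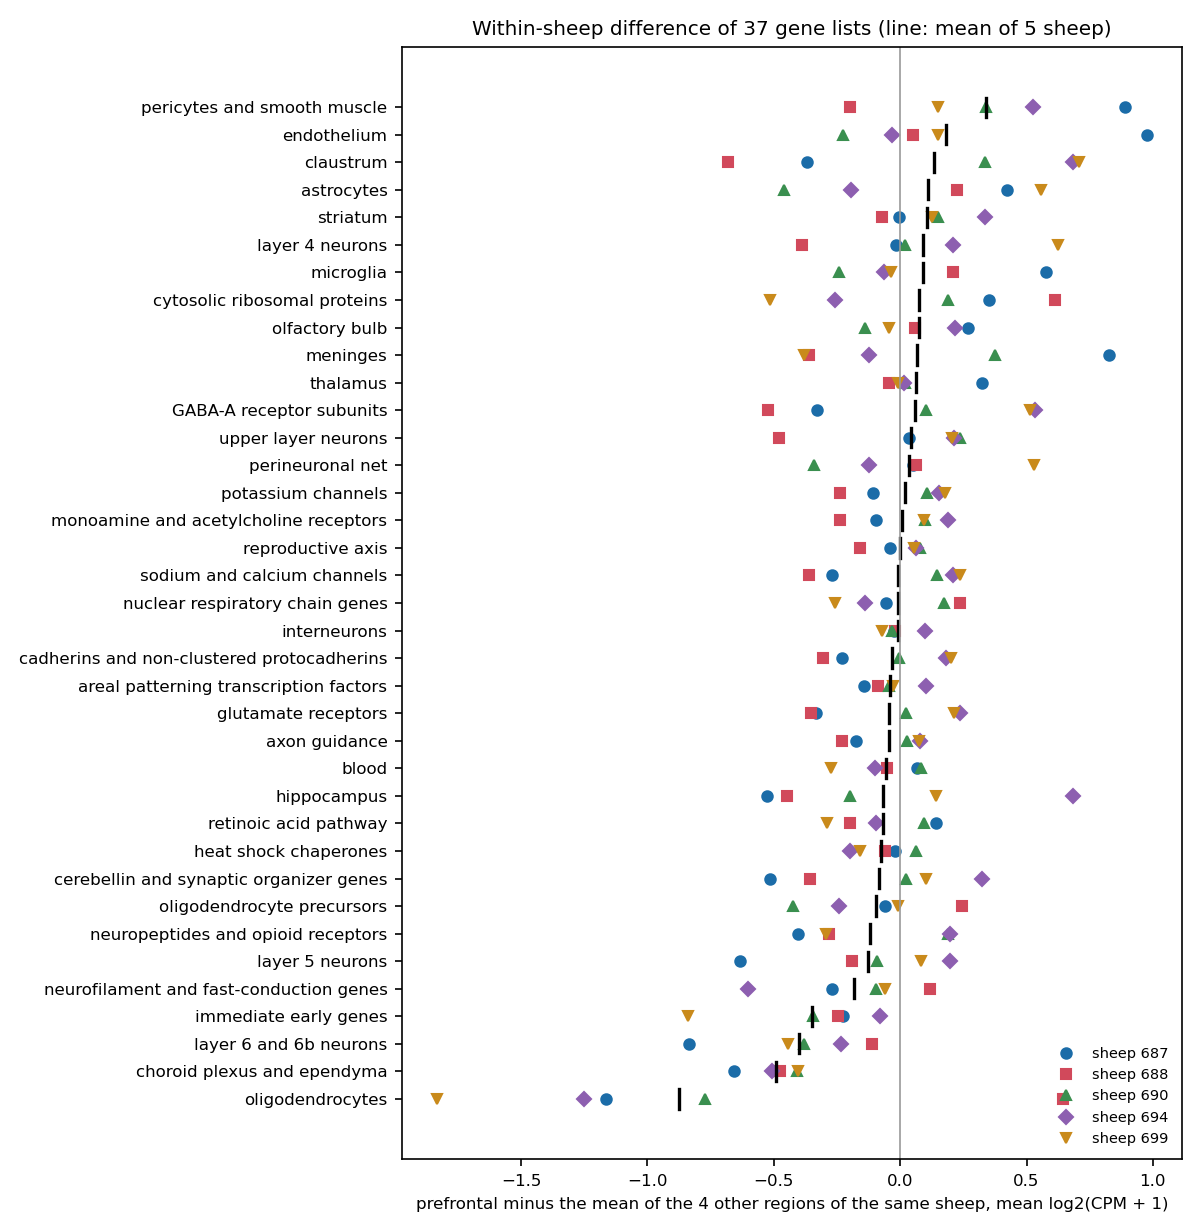
Difference between the prefrontal library and the mean of the 4 other regions of the same sheep (horizontal axis, mean log2(CPM + 1)) for each of 37 gene lists (rows, sorted by mean), with 1 symbol per sheep and a black line at the mean of 5. Only the layer 6, choroid plexus and ependyma, and immediate early gene lists lie on the same side of 0 in all 5 sheep. With 37 lists and 5 sheep, a few such lists can arise from random signs alone. Whether there are more than that was not tested. The means of the other regions include libraries that stand apart. Among them are motor cortex of sheep 687 (choroid plexus list at 3.81) and frontal cortex of sheep 699 (immediate early genes at 5.54). Sheep 688 alone has a higher oligodendrocyte level in prefrontal cortex (0.65).

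Genes of the reproductive axis were split, with 10 of 17 tested fitted higher and 7 lower (median 0.02). ESR2, the estrogen receptor beta, read 5.22, 3.05, 8.34, 4.5 and 7.02 CPM in prefrontal cortex, close to visual cortex at 3.75 to 8.24 and above posterior parietal cortex at 1.62 to 2.72. Its main difference was 0.75 ± 0.28 (SE, higher in 4 of 5 sheep, unadjusted p = 0.0133 in edgeR). OXTR, the oxytocin receptor, was near the limit of counting, with 28 counts in the 5 prefrontal libraries, 1 of which held 0, and 415 in the 20 others (−1.48 ± 0.68). Ribosomal protein genes differed little, and in opposite directions between animals: 69 of 71 were fitted higher with a median of 0.08, while the list was higher by 0.35, 0.61 and 0.19 in sheep 687, 688 and 690 and lower by 0.26 and 0.52 in sheep 694 and 699. Nuclear respiratory chain genes had a median of −0.03 over 60.

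The differences between prefrontal cortex and the rest of the neocortex varied between the 5 sheep. For each sheep the prefrontal library was set against the mean of its 4 other libraries over 12159 genes of at least 5 CPM, and these 5 profiles of differences were correlated with one another across genes, as a description. The 10 pairs ran from −0.63 (sheep 688 and 694) to 0.62 (sheep 694 and 699), with a median of −0.06. Sheep 687 and 688 resembled each other (0.56), as did sheep 694 and 699, and sheep 688 and 699 were opposed (−0.48). Genes are not independent replicates, and lists such as oligodendrocyte or ribosomal genes, whose members vary together between libraries, enter these values. The 4 libraries that stand apart enter the means of sheep 687, 694 and 699. These correlations therefore cannot tell a prefrontal library that differs from a comparison library that differs, and the part of those 4 libraries was not tested.

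**Figure D5:**
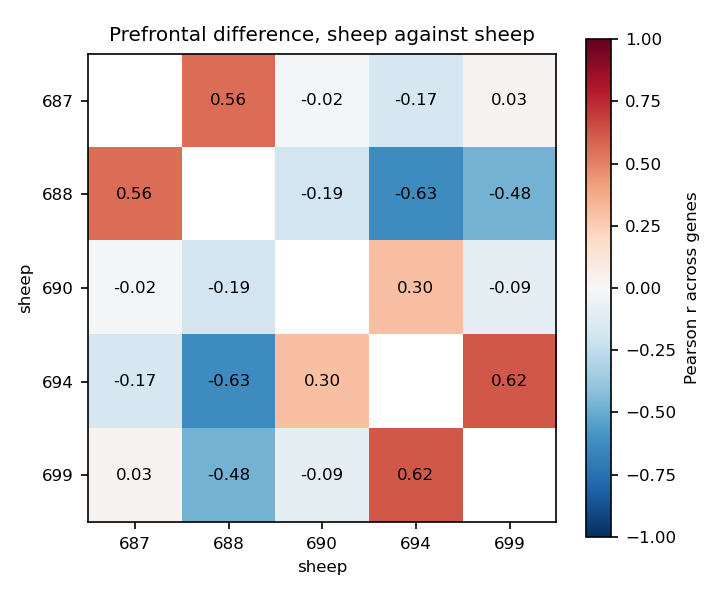
Pearson r, across 12159 genes, between the prefrontal differences of each pair of sheep (both axes; the colour scale runs from −1 to 1). Sheep 694 and 699 are alike (0.62), sheep 688 and 694 opposed (−0.63), and the median of the 10 pairs is −0.06.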

How the data were processed

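RNA of 5 sheep prefrontal and 20 other neocortical samples was analysed here. The submitters describe, in the series' text and the labels' protocols, TRIzol extraction, a DNase I step, a stranded Kapa mRNA kit and paired reads of 150 bases from a NovaSeq X Plus. Per the labels' protocols and that text, the aligner was STAR v2.7.5a on the assembly ARS-UI_Ramb_v3.0, after trimming by Trimmomatic v0.39, and the counter was Rsubread v2.20.0. What the authors deposited are raw read counts, with a column for each library and no normalization. The sources used here give no strand or multi-mapping setting, so values of near-identical, overlapping or antisense genes are uncertain. No sheep annotation was used, so no positions or sequences are printed.

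Counts of 31304 genes were filtered with filterByExpr by region (20045 kept), scaled by TMM and tested by quasi-likelihood in edgeR 4.0.16 (R 4.3.3), with region and sheep as terms. The sheep term is the replicate block: the numbers name the animals. Deviations of a prefrontal library from its region mean correlated with those of the other 4 libraries of its sheep by 0.02 to 0.17 on average. The single correlations ran from −0.45 to 0.66. P-values were adjusted by Benjamini and Hochberg over all genes. Fold changes use a prior count of 0.125, and SEs were computed back from the F statistic. ± is the SD for CPM and the SE for log2 fold changes. DESeq2 1.42.0 and limma 3.58.1 (voom) were alternatives. The scripts were tested on simulated counts. Floors and intervals cover counting error or the fitted spread only. The edgeR p-values rest on the spread of single libraries, pooled over the regions, that the region and sheep terms leave. They are not a measure of the spread between animals.

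The members, gene lists and rules were chosen with earlier results of these data known. With no gene called, the rule named the 5 genes of smallest p in each direction, up to 3 called per single-region contrast and direction, and up to 2 per list by smallest p; 8 more per direction at 5 CPM or above, and further list members, were added after their values were seen.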

Additional observations from a re-analysis of the deposited data

Results flagged for a closer look

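In 12 of 150 sets of 5 prefrontal values, 1 library stood far from the other 4 by Dixon's test at 95% (critical value 0.71). Of these, 10 were in sheep 688: PENK at 29.8, NEFL at 504, NEFH at 116, KCNG4 (a potassium channel subunit) at 0.98, SCN4B (a sodium channel subunit) at 76.4, SYT6 at 10.1, MBP at 5916, MAG at 82.2 and MOG (all 3 myelin proteins) at 30.6 CPM, and the neurofilament list at 6.61 in mean log2(CPM + 1). All 10 were the highest of the 5 prefrontal libraries. The other 2 were TNC, the matrix protein tenascin C, at 34.6 CPM in sheep 699 and PRKCD, a protein kinase C listed as a thalamic marker, at 23.4 CPM in sheep 687. Members of 1 list share their library and are not separate evidence, and what sets sheep 688 apart was not tested. For independent, normally distributed values the test flags about 1 in 20. The values here are mostly CPM, share libraries and include genes added after their values were seen. The 12 of 150 therefore cannot be set against that rate.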

How the results depend on the processing

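The main count of 0 calls stayed 0 with the 2 other scalings, with no low-count filter, with voom, with the oligodendrocyte covariate, with the others summed per sheep, without any 1 of the other regions and without the 4 libraries that stand apart (added after seeing the data). It was 39 in DESeq2 and 1 with all 50 brain libraries in the fit. Leaving out a sheep gave 0 to 4 calls, and leaving out a prefrontal library 0 to 2, in both cases with sheep 688 as the one that gave calls. Without the replicate block (pairing by animal) the main count was 0. Against frontal, posterior parietal and visual cortex DESeq2 called 35, 67 and 24 genes, and leaving out a sheep gave up to 4 against posterior parietal cortex. Against motor cortex the 1 call became 2 with upper quartile factors, 414 in DESeq2, 2 in voom, 0 to 5 when a sheep was left out and 0 without the 4 libraries. Without the block, motor cortex against its counterparts gave 35 calls and posterior parietal cortex 0; without the 4 libraries motor and posterior parietal cortex gave 0 and visual cortex 2. DESeq2 called 2 list members, SEMA3E and TTR.

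Of 2700 gene and setting pairs, 2660 kept direction and side of the threshold. Nearly all of these genes were far from the threshold in the main fit, and the settings share libraries. That count is therefore no measure of robustness. Leaving out a sheep or a prefrontal library moved the fold change of RORB between −0.017 and 0.77, TNC between −0.043 and 0.36, ESAM between −0.020 and 0.36, PRKCD between −0.038 and 0.23, GABRA4 between −0.010 and 0.40 and CBLN2 between −0.19 and 0.16. The negative values came without sheep 699 for RORB and TNC, 687 for ESAM and PRKCD, 694 for GABRA4, and 690 or 694 for CBLN2. With the oligodendrocyte covariate GABRA4 was at −0.13, TNC −0.032, SP8 −0.13, CBLN2 −0.12 and MBP 0.43. With motor cortex not compared, SP8 was at −0.062 and CBLN2 at −0.0082. CBLN2 was at −0.12 with posterior parietal cortex not compared, −0.040 with the others summed and −0.054 without the 4 libraries. The causes were not tested. With 5 animals and adjustment over 20045 genes, fitted differences beyond 2-fold also went uncalled in edgeR, among them TFAP2D at 4.01 and SEMA3E at −1.11.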
